A study of Mus musculus with 30 samples.

Results

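The small Maf genes Mafk, Maff and Mafg, the gene Nfe2l2, which encodes Nrf2, and 6 enzyme genes of the oxidative response, Hmox1, Nqo1, Txnrd1, Gclc, Gclm and Gsr, were followed across 30 arrays of mouse embryonic fibroblasts (MEFs). They are 10 named genes of the 21689 genes with probes on the array, listed by name, with earlier results of these data known. The study asked how gene expression changes when the stress kinase p38 is activated, and how much of the change needs p38α. Immortalised wild type MEFs were stressed for 45 min with anisomycin, an inhibitor of protein synthesis (25 ng/ml), for 45 min with the inflammatory cytokine TNFα (100 ng/ml), or by osmostress in 100 mM NaCl for 45 min, 2 h or 8 h. Each stress was given alone and after SB203580, an inhibitor of p38α and p38β, and a further wild type group received SB203580 alone. Immortalised p38α-/- MEFs, which lack p38α throughout, were left without stress or were given anisomycin, TNFα or 2 h of NaCl, with no inhibitor. This made 15 groups of 2 arrays, 11 of wild type and 4 of p38α-/- MEFs. The protocol gives 10 μM SB203580 for 30 min before the stress, whereas the sample titles give 10 mM and 2 h. The methods name no second cell line of either genotype, so that a difference between the lines cannot be told apart from the loss of p38α.

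Each array set a Cy5-labelled sample against Cy3-labelled RNA pooled from 2 wild type cultures without treatment, and dyes were never swapped. The values below are log2 ratios of the sample to this pool, so that 1 is a doubling and 0 is the level of untreated wild type MEFs. The pool is the only untreated wild type control, and a test against it holds the spread between the treated cultures alone. A bias of a gene towards 1 dye cannot be told apart from a true difference to the pool. It cancels where a group is set against another group, but not in the differences between changes with stress given further below. In RNA of whole cultures, fewer cells with a transcript and less transcript per cell cannot be told apart. Spots marked as outliers by the scanner software took between 6.78% and 44.8% of the spots of an array (median 16.0%) and were left out. Of the 480 spots of the 16 probes of the 10 genes, 105 were marked, 50 of them among the 90 spots of Gsr, while 1 was not well above background in Cy5 and none was saturated. A gene was tested in a group only where both arrays held an unmarked spot. Values of single arrays, Mapk14 included, are given throughout with marked spots kept, while tests and fitted means leave them out unless it is said that they were kept. Mapk14, which encodes p38α, was at 0.03 to 1.31 on the 22 wild type arrays (median 0.33) and at -2.24 to -0.94 on the 8 p38α-/- arrays (median -1.20), with 6 and 2 of these arrays marked. All 12 fibroblast markers were well above background on all 30 arrays, but so were all 5 blood and macrophage markers and the 2 epithelial markers that the array held, so that presence above background did not separate cell types here.

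Nrf2 is a transcription factor that the adaptor protein Keap1 holds at a low level in unstressed cells and that accumulates when electrophiles or oxidants modify Keap1. It binds DNA as a heterodimer with a small Maf protein, at the antioxidant response element. Small Maf proteins have no activation domain of their own, so that their homodimers and their dimers with Bach1 can repress the same genes. Targets of Nrf2 include the subunits of glutamate-cysteine ligase, the reductases of glutathione and thioredoxin, the quinone reductase Nqo1 and the heme oxygenase Hmox1. Nrf2 is controlled largely through the stability of the protein, which arrays do not measure.

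The promoters are shown for the places where the partners of these dimers could be read in the DNA. The reference table of promoter windows, taken from RefSeq on the build GRCm38.p6 and running from 250 bases before to 50 bases after a gene's start, held 11 windows of 7 of the 10 genes. Both strands were searched for the core of the antioxidant response element, TGACNNNGC, for the AP-1 site, TGANTCA, and for the cAMP response element, TGACGTCA. The first and the second overlap where TGACTCA is followed by GC. The element core was found in 6 windows of 6 genes, AP-1 in 0 windows and the cAMP response element in 1. Among all 32851 windows of the table, the shares were 12.4%, 7.81% and 1.79%. Each match is printed on the strand of the gene with up to 10 bases on either side, and capitals mark the matched letters, which read as the reverse complement where the match is on the opposite strand.
Mafk, chr5:139791513-139791535, plus strand, 13 to 5 bases before the start, opposite strand: gatcccggaaGCGGTGTCAgtac
Maff, chr15:79346499-79346527, plus strand, 112 to 104 bases before the start: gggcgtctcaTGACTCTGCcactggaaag
Mafg, chr11:120633751-120633779, minus strand, 222 to 214 bases before the start, opposite strand: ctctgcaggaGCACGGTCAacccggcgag
Nfe2l2, chr2:75704885-75704913, minus strand, 240 to 232 bases before the start: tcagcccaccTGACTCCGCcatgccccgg
Txnrd1, chr10:82859104-82859132, plus strand, 92 to 84 bases before a second start, opposite strand: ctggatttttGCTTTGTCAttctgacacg
Gclm, chr3:122245413-122245441, plus strand, 134 to 126 bases before the start, opposite strand: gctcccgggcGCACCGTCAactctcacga
Maff, cAMP response element, chr15:79347481-79347508, plus strand, 29 to 22 bases before a second start: gctggggcggTGACGTCActgcatgact
The window of Nqo1 held none of the 3 motifs. Hmox1, Gclc and Gsr had no entry. A match is a string of letters and shows no binding.

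Against the pool and without inhibitor, Mafk rose in wild type MEFs with every stress other than NaCl for 45 min, and Maff with anisomycin and with NaCl at 2 h and 8 h. Maff had no test with TNFα or NaCl for 45 min, and with marked spots kept it rose with both, less so with NaCl. With the groups that received SB203580 included, Nfe2l2 rose modestly in 9 of 11 wild type groups. Nqo1 rose over the pool in 11 of the 14 groups with a test, in both genotypes, and Gclc rose most at 8 h of NaCl. Gclm was lower than the pool in the stressed p38α-/- MEFs, as it was in untreated ones with marked spots kept. Of the 150 pairs of a gene and a group, 107 had a test, and 56 were called at an adjusted p under 0.05 (limma, Benjamini-Hochberg over all genes measured), 51 of them higher and 5 lower. A fit with the replicate number as a block called 74 of them, the same 56 and 18 more. That fit called more of all genes in each group too. With anisomycin in wild type MEFs, for example, 1729 rose and 1598 fell of 15712, beside 899 and 988 of 15720 without the block.

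By group, the counts stood beside the share of all tested genes called in that group. In wild type MEFs, 3 of 7 members were called with anisomycin (12% of all genes), 2 of 4 with TNFα (11%) and 1 of 5 with NaCl for 45 min (9.88%). For longer NaCl, 6 of 9 were called at 2 h (9.92%) and 6 of 9 at 8 h (22.2%). With SB203580 alone, 3 of 5 were called (26.6%). After SB203580, the counts were 3 of 6 with anisomycin (11.7%), 3 of 7 with TNFα (9.52%) and 2 of 7 with NaCl for 45 min (16.8%), then 6 of 7 at 2 h (17.1%) and 5 of 9 at 8 h (21.2%). In p38α-/- MEFs, 2 of 5 were called untreated (15%), 4 of 8 with anisomycin (12.4%), 4 of 9 after TNFα (7.61%), and 6 of 10 after 2 h of NaCl (18%). The share among the members was above the background in each group, but it rested on 1 or 2 called genes in some. The members were chosen with earlier results of these data known. These groups also share the Cy3 pool, and the same few genes recur in them. With marked spots kept, all 21689 genes were tested, and the background was higher. Of the 10 members, 6 were then called with TNFα (22.4% of all genes) and 3 with NaCl at 45 min (19%). With SB203580 alone 6 were called (41.4%), and in untreated p38α-/- MEFs 6 (25.8%).

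Maff, a small Maf that is known as an immediate early gene in many cell types, had the highest ratios of the 3 small Maf genes with anisomycin and TNFα in wild type MEFs. In wild type MEFs it was at 2.26 and 1.97 with anisomycin, at 2.22 and 1.78 with TNFα (the second array marked), and at 0.72 and 0.45 (the second marked), 2.35 and 1.61, and 1.96 and 1.86 with NaCl at 45 min, 2 h and 8 h. With SB203580 alone it was at 0.15 and -0.09 (the second marked), near the level of the pool. All 10 arrays of a stress without inhibitor lay above both arrays of SB203580 alone, and the 2 arrays of NaCl for 45 min lay below the other 8. The fitted means were 2.12 for anisomycin (SE 0.20, 4.34-fold, adjusted p = 3.23e-05), 1.98 for NaCl at 2 h (SE 0.20, 3.96-fold, adjusted p = 4.1e-05) and 1.91 for NaCl at 8 h (SE 0.20, 3.76-fold, adjusted p = 1.31e-05). The second array of TNFα and that of NaCl at 45 min were marked, and with them kept the means were 2.00 (adjusted p = 3.24e-06) and 0.58 (adjusted p = 0.0461).

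After SB203580, Maff was at 0.85 and 0.70 with anisomycin and at 1.59 and 1.17 (the second marked) with TNFα. It was at 0.47 and 0.37, 1.62 and 2.07, and 1.24 and 1.51 with NaCl at 45 min, 2 h and 8 h. With the inhibitor the arrays of anisomycin, TNFα and NaCl at 8 h lay below those without it, whereas at 45 min and 2 h of NaCl the arrays overlapped. Maff in p38α-/- MEFs was at 0.60 and -0.13 untreated, 1.18 and 0.71 with anisomycin, 1.45 and 1.23 with TNFα, and 1.34 and 0.73 with NaCl for 2 h. Every stressed p38α-/- array lay above both untreated ones and below both wild type arrays of the same stress.

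Mafk, a small Maf with an element core just before its start, was above the pool on all 30 arrays. In wild type MEFs it was at 1.53 and 1.00 with anisomycin, 0.89 and 0.71 with TNFα, and 0.80 and 0.25, 1.80 and 1.26, and 1.74 and 1.98 with NaCl at 45 min, 2 h and 8 h. With SB203580 alone it was at 0.31 and 0.08, so that the first array lay above the lower of the NaCl arrays at 45 min. Its mean was highest at 8 h of NaCl (1.86, SE 0.21, 3.64-fold, adjusted p = 5.22e-06) and was also raised with anisomycin (1.27, SE 0.21, adjusted p = 0.000935), TNFα (0.80, SE 0.21, adjusted p = 0.02) and NaCl at 2 h (1.53, SE 0.21, adjusted p = 0.000156). After SB203580 it was at 0.89 and 0.60 with anisomycin, 0.69 and 0.62 with TNFα, and 0.56 and 0.47, 1.25 and 1.38, and 0.92 and 1.24 with NaCl at the 3 times. The arrays with and without inhibitor overlapped at 45 min and 2 h of NaCl and lay apart in the other 3 stresses.

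Mafk in p38α-/- MEFs was at 1.10 and 0.18 untreated, 1.21 and 0.82 with anisomycin, 0.75 and 0.40 with TNFα, and 1.59 and 0.83 with NaCl for 2 h. The first array of each of these groups lay above the second, and the first arrays were scanned on another day than the second ones. The part of the scan day in this was not tested. The untreated arrays differed by more than the stress differed from them, and the stressed arrays overlapped with the wild type ones under each stress. Mafk in untreated p38α-/- MEFs was called against the pool (0.64, SE 0.21, adjusted p = 0.0471), and it was at 0.18 without the first array and at 1.10 without the second.

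Mafg, the remaining small Maf gene, lay below the pool on 21 of 22 wild type and 6 of 8 p38α-/- arrays with marked spots kept. Its means lay between -0.65 for NaCl at 45 min and 0.05 for TNFα in wild type MEFs. It was called lower in 1 of the 12 groups tested, SB203580 with NaCl for 2 h, where the arrays were at -0.62 and -0.61 (mean -0.61, SE 0.18, adjusted p = 0.0279). Its 2 probes differed. The probe for the RefSeq transcript stayed below the pool in every wild type group, at group means between -0.87 and -0.21. The probe for a cDNA clone was between -0.53 and 0.58, with the highest value for TNFα, where the RefSeq probe was below the pool.

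**Figure D1:**
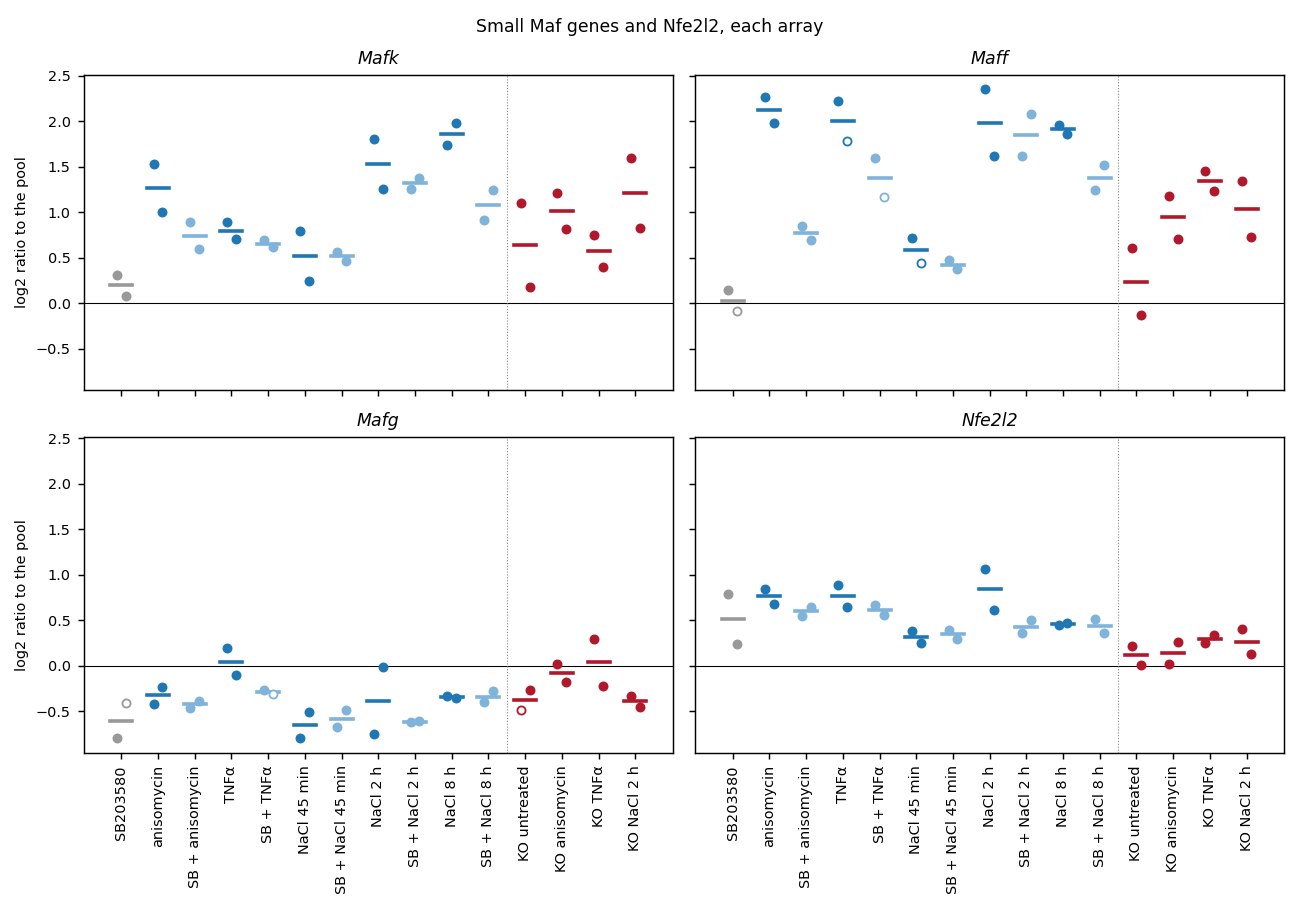
Log2 ratio to the untreated wild type pool of the 3 small Maf genes and Nfe2l2 on each array, with wild type MEFs left of the dotted line and p38α-/- MEFs (KO) right of it. Points are single arrays, open circles are arrays on which all spots of the gene were marked as outliers, and bars are means with marked spots kept. Maff with anisomycin was at 2.26 and 1.97 in wild type MEFs, at 0.85 and 0.70 after SB203580 (SB) and at 1.18 and 0.71 in p38α-/- MEFs.

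Nfe2l2, the gene of Nrf2, was above the pool on all 30 arrays, from 0.24 to 1.07 in wild type MEFs (median 0.53) and from 0.01 to 0.40 in p38α-/- MEFs (median 0.24). In wild type MEFs it was at 0.84 and 0.68 with anisomycin, 0.88 and 0.65 with TNFα, and 0.38 and 0.25, 1.07 and 0.62, and 0.44 and 0.47 with NaCl at the 3 times, each with marked spots kept. With SB203580 alone it was at 0.79 and 0.24, a spread that covers most of the stressed arrays. It was called in 9 wild type groups, among them TNFα (0.76, SE 0.13, adjusted p = 0.001), anisomycin (0.76, SE 0.13, adjusted p = 0.00095) and SB203580 alone (0.52, SE 0.13, adjusted p = 0.00663). It was called in 0 of the 4 groups of p38α-/- MEFs, where 1, TNFα, was under 0.05 without adjustment, as were 3597 of 16622 genes. With SB203580 alone it was at 0.24 without the first array.

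Of the 4 probes of Nfe2l2, the 2 for the RefSeq transcript gave nearly the same values, with group means from 0.53 to 1.12 and from 0.51 to 1.11 in wild type MEFs and from 0.17 to 0.32 and from 0.17 to 0.31 in p38α-/- MEFs. Their lowest wild type group mean lay above their highest p38α-/- group mean. However, every wild type group was treated, whereas the p38α-/- groups included untreated cells, so that this is no comparison of the genotypes alone. In untreated p38α-/- MEFs both RefSeq probes were at 0.17, above the pool of untreated wild type MEFs. The other 2 probes, for cDNA clones, did not separate the groups of the 2 lines in this way. One was between -0.07 and 0.73 in wild type and between -0.35 and 0.30 in p38α-/- MEFs, and the other between -0.38 and 0.78 and between 0.28 and 0.54.

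**Figure D2:**
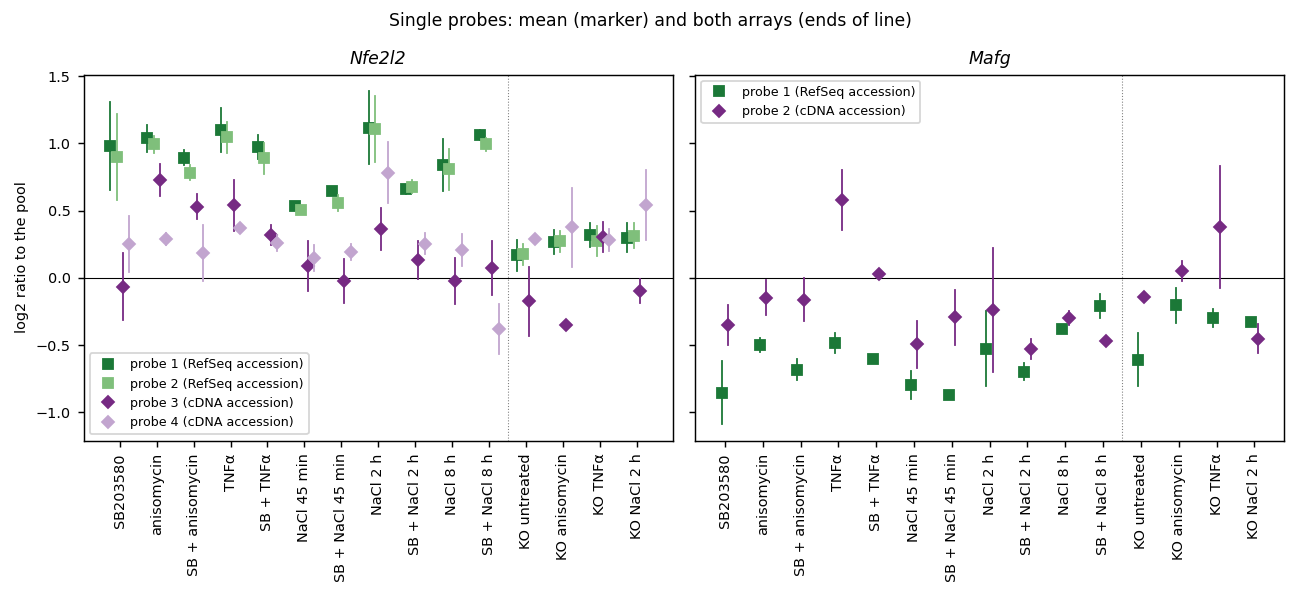
Log2 ratio to the pool of each probe of Nfe2l2 and of Mafg in the 15 groups, where markers are means and the ends of the lines are the 2 arrays, with p38α-/- MEFs (KO) right of the dotted line. Squares are probes for RefSeq transcripts and diamonds are probes for cDNA clones. The 2 RefSeq probes of Nfe2l2 were at 0.51 or above in every wild type group and at 0.32 or below in every p38α-/- group. Every wild type group was treated.

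Among the enzymes, Gclc, the catalytic subunit of glutamate-cysteine ligase and thus of the limiting step of glutathione synthesis, had the highest ratio of any member. It was at 2.48 and 2.53 with NaCl for 8 h, and the mean of 2.51 (SE 0.12, 95% interval 2.26 to 2.76) was a 5.68-fold rise over the pool (adjusted p = 1.81e-08). After SB203580 it was at 1.77 and 1.91 at the same time (mean 1.84, SE 0.12, 3.58-fold, adjusted p = 1.02e-06), below both arrays without the inhibitor. With NaCl at 45 min and 2 h it was at 0.48 and 0.20 and at 0.38 and 0.07, the second array of each marked. In both lines it stayed at or under 0.58 in all other stressed groups, whereas SB203580 alone gave 1.10 and 0.61, the second marked (mean with marked spots kept 0.85, adjusted p = 7.04e-05). It was also called, near 0.4, in wild type MEFs with SB203580 and NaCl for 2 h (0.43, SE 0.12, adjusted p = 0.0227) and in p38α-/- MEFs untreated (0.45, SE 0.12, adjusted p = 0.0204) or with NaCl (0.39, SE 0.12, adjusted p = 0.0356). In the last 2 groups the values without the first array were 0.29 and 0.19.

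Gclm, the modifier subunit of the same enzyme, carries an element core in its promoter. It was between -0.54 and 0.30 on the wild type arrays, 9 of them above and 13 below the pool, and was called in 0 wild type groups. With NaCl for 8 h, where Gclc was highest, it was at 0.03 and 0.30. In p38α-/- MEFs it was at -0.48 and -0.84 untreated, both marked, at -0.66 and -1.05 with anisomycin, at -0.85 and -0.86 with TNFα and at -0.41 and -0.97 with NaCl. All 8 p38α-/- arrays lay below the pool. It fell in the 3 stressed groups, by 0.85 with anisomycin (SE 0.17, adjusted p = 0.00753), by 0.86 with TNFα (SE 0.17, adjusted p = 0.0105) and by 0.69 with NaCl (SE 0.17, adjusted p = 0.0156), and with NaCl it was at -0.41 without the second array. With marked spots kept the untreated mean was -0.66 (adjusted p = 0.00371), so that the lower level was there without stress.

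Nqo1, which reduces quinones by 2 electrons and is a standard readout of Nrf2, was above the pool on all 30 arrays and higher in p38α-/- MEFs. The p38α-/- MEFs had it at 1.76 and 1.32 untreated, 1.03 and 1.40 with anisomycin, 1.12 and 1.12 with TNFα, and 1.65 and 0.94 with NaCl for 2 h. In wild type MEFs it was at 0.52 and 0.46 with SB203580 alone, 0.41 and 0.07 with anisomycin, 0.26 and 0.60 with TNFα, and 0.32 and 0.74, 0.59 and 0.38, and 1.10 and 1.20 with NaCl at the 3 times. The 8 p38α-/- arrays ran from 0.94 to 1.76, and of the 22 wild type arrays those with NaCl alone for 8 h reached into that range and the other 20 did not. The first untreated p38α-/- array was marked, and with it kept the untreated mean was 1.54 (SE 0.14, 2.91-fold, adjusted p = 1.82e-06). Against the pool Nqo1 was called in all 3 stressed p38α-/- groups, at 1.22, 1.12 and 1.29 (SE 0.14 each, adjusted p = 3.7e-05, 9.23e-05 and 1.23e-05), and in 8 of 11 wild type groups. With NaCl for 45 min, one of these 8, it was at 0.32 without the second array.

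Gsr, the reductase that restores glutathione, and Txnrd1, that of thioredoxin, were the members with the largest share of marked spots, and 9 and 5 of their 15 groups had a test. With marked spots kept, Gsr was above the pool on all 8 p38α-/- arrays, from 0.46 to 1.02 (median 0.66). In wild type MEFs it ran from -0.32 to 1.02 (median 0.35), and 3 of the 4 arrays of NaCl for 8 h, with and without SB203580, were the only ones below the pool. It was called higher in 4 of 9 groups, in p38α-/- MEFs with TNFα (0.69, SE 0.13, adjusted p = 0.00921) and NaCl (0.71, SE 0.13, adjusted p = 0.00376) and in wild type MEFs with SB203580 and either TNFα (0.52, SE 0.13, adjusted p = 0.0307) or NaCl for 45 min (0.55, SE 0.13, adjusted p = 0.0165). In p38α-/- MEFs with NaCl it was at 0.46 without the first array.

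Txnrd1 was called in 1 of 5 groups, NaCl for 2 h in wild type MEFs, at 0.97 and 0.60 (mean 0.78, SE 0.21, adjusted p = 0.0496). With marked spots kept it was at 0.80 and 1.47 at 8 h of NaCl, at 0.77 and 0.61 with anisomycin and at 0.80 and 0.45 with TNFα. With SB203580 alone it was at 0.57 and -0.16, the second marked. The p38α-/- arrays ran from -0.04 to 0.72 (median 0.17), so that both lines overlapped.

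Hmox1, the heme oxygenase that is induced by Nrf2 when Bach1 leaves its promoter, stayed near the pool, between -0.34 and 0.52 on the wild type and between -0.39 and 0.25 on the p38α-/- arrays. It was at 0.52 and 0.31 with NaCl for 2 h (0.41, SE 0.09, 1.33-fold, adjusted p = 0.0163) and at 0.51 and 0.24 with SB203580 alone (0.37, SE 0.09, adjusted p = 0.0122). At 8 h of NaCl it was at -0.34 and -0.22 (-0.28, SE 0.09, adjusted p = 0.0471). With SB203580 alone it was at 0.24 without the first array. With anisomycin and TNFα it was at 0.21 and 0.06 and at 0.07 and -0.21 (the last marked), within the range of the other groups.

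**Figure D3:**
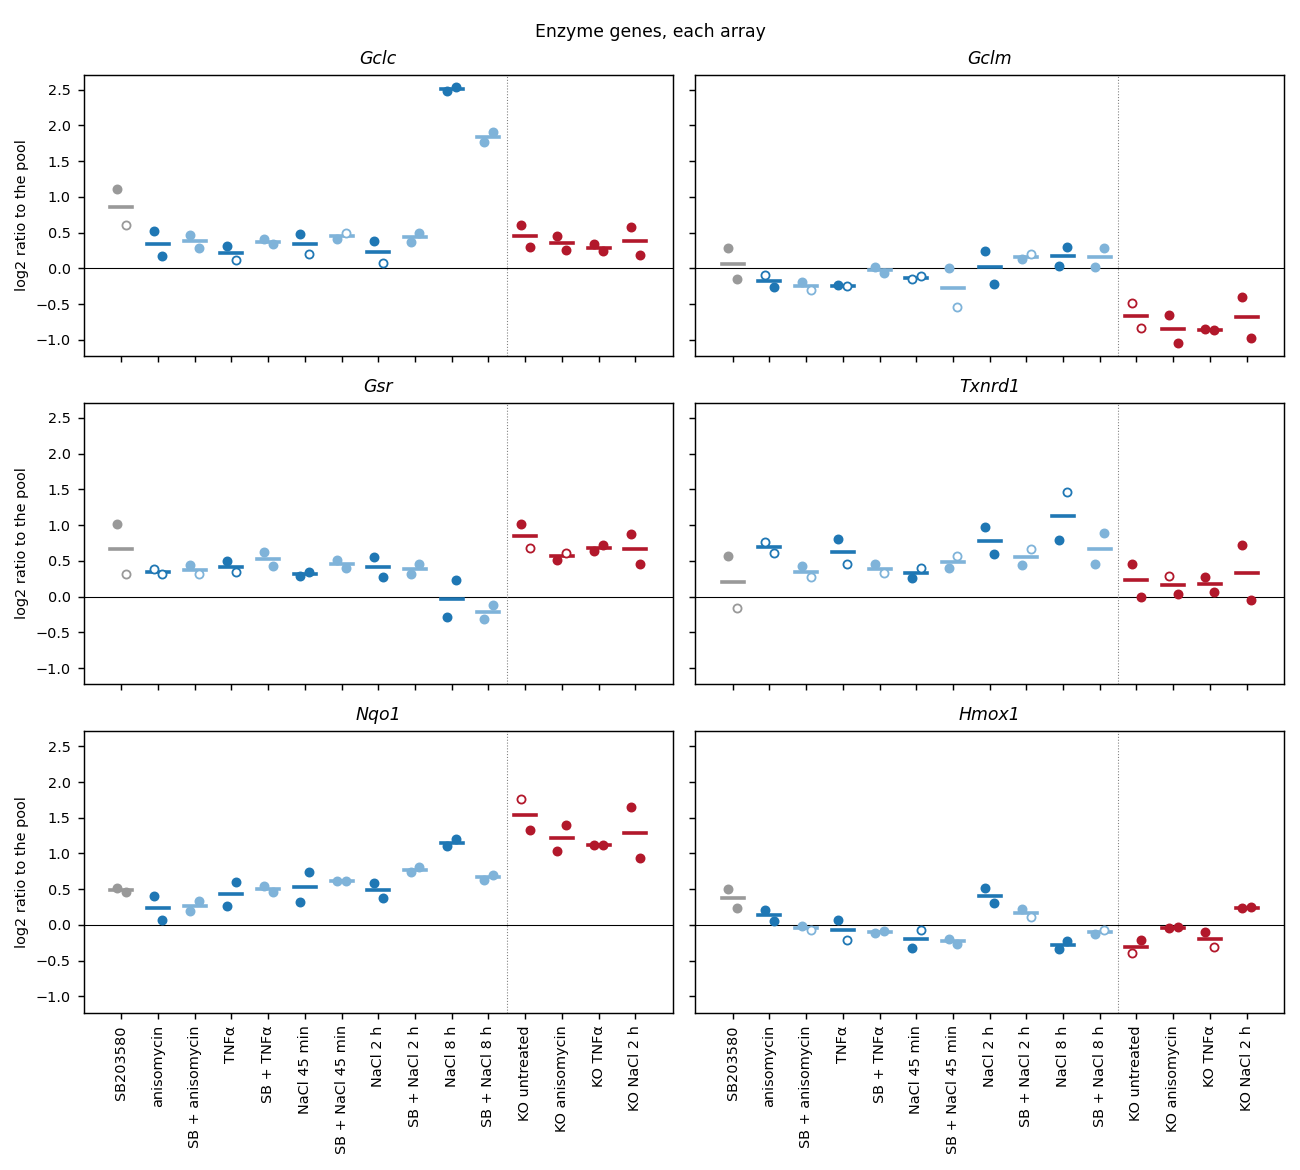
Log2 ratio to the untreated wild type pool of the 6 enzyme genes on each array, with wild type MEFs left of the dotted line and p38α-/- MEFs (KO) right of it. Points are single arrays, open circles are arrays on which all spots of the gene were marked as outliers, and bars are means with marked spots kept. Gclc stood at 2.48 and 2.53 with NaCl for 8 h, and Nqo1 between 0.94 and 1.76 and Gclm between -1.05 and -0.41 in p38α-/- MEFs.

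Time in NaCl was compared in wild type MEFs by contrasts of the same fit. The labels give no untreated culture for each time, so that time in culture cannot be told apart from time in NaCl. Between 45 min and 2 h, 0 of 5 members tested were called (0.0540% of all genes). Without adjustment 2 members, Mafk and Nfe2l2, were under 0.05, beside 767 of 12968 genes. Mafk differed by 1.01 (SE 0.30, adjusted p = 0.381), and Maff by 1.40 with marked spots kept (adjusted p = 0.0515). Between 2 h and 8 h, 2 of 8 were called (7.81% of all genes). Without adjustment 3 were under 0.05, beside 2998 of 15577 genes. The third was Gsr with a difference of -0.47 (95% interval -0.88 to -0.06, adjusted p = 0.185). Hmox1 fell by 0.69 (SE 0.13, 95% interval -0.97 to -0.41, adjusted p = 0.0072), and Nqo1 rose by 0.66 (SE 0.20, adjusted p = 0.0494). The arrays of both genes did not overlap between the times. The call of Nqo1 is at the threshold, with an adjusted p of 0.0516 with marked spots kept and of 0.0541 with the scan day as a term. When 1 of the 4 arrays was left out in turn, Nqo1 was called in 0 and Hmox1 in 2 of the 4 fits, with values from 0.56 to 0.77 and from -0.80 to -0.59.

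Gclc had no test between 2 h and 8 h since its second array at 2 h was marked. With this spot kept, it rose by 2.28 (SE 0.18, 4.86-fold, adjusted p = 6.45e-07, 8.35% of all genes called). The differences at 8 h against 2 h were 0.33 for Mafk and -0.07 for Maff (adjusted p = 0.649 and 0.955), so that their levels at the 2 times could not be separated. The 95% intervals of these differences ran from -0.29 to 0.95 for Mafk and from -0.69 to 0.54 for Maff.

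**Figure D4:**
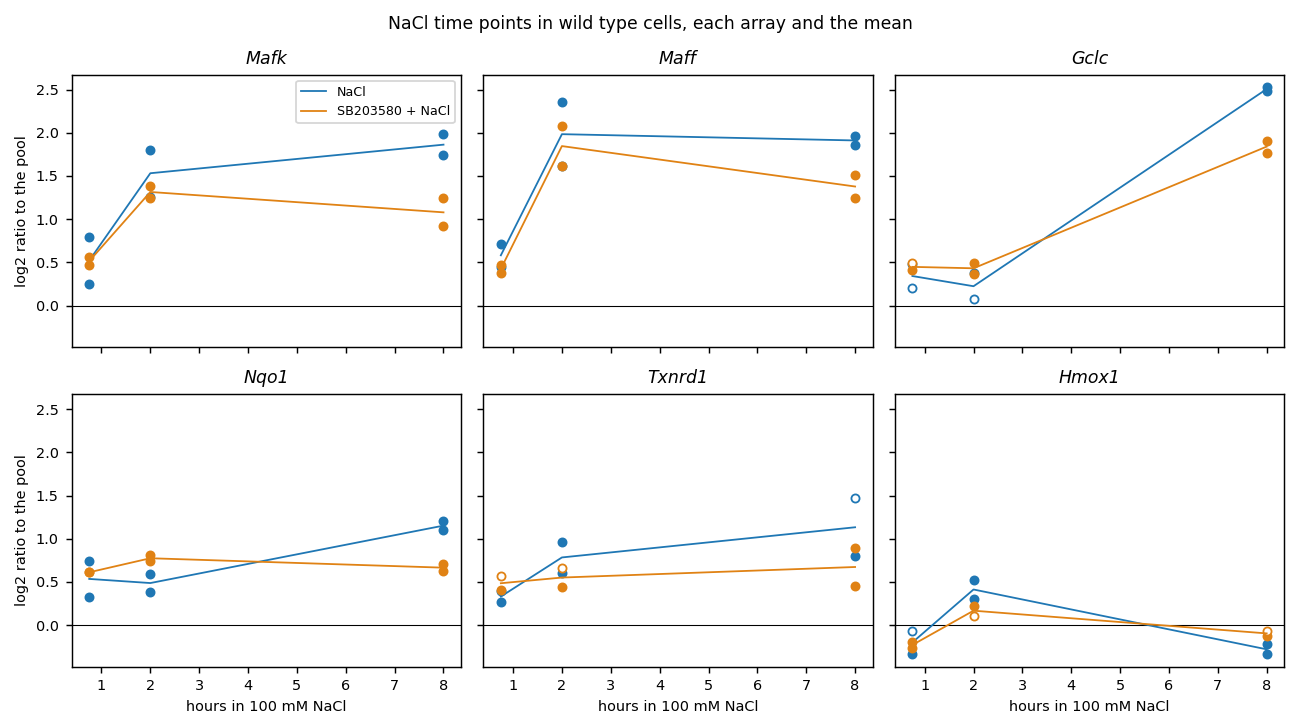
Log2 ratio to the pool of 6 members in wild type MEFs at 45 min, 2 h and 8 h in 100 mM NaCl, without (blue) and with (orange) SB203580, on a linear time axis. Points are arrays, open where all spots were marked as outliers, and lines join the means. Gclc went from 0.38 and 0.07 at 2 h to 2.48 and 2.53 at 8 h, while Hmox1 went from 0.52 and 0.31 to -0.34 and -0.22.

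SB203580 was tested by setting each stress with the inhibitor against the same stress without it, where the pool cancels. Of the 28 tests of members in 5 stresses, 0 were called and 4 were under 0.05 without adjustment. All-gene calls were also rare in these contrasts, at 0.0204% with anisomycin, 0% with TNFα, 0% with NaCl at 45 min, 0% at 2 h and 0.206% at 8 h, with 204, 312 and 533 genes under 0.05 without adjustment for the 3 contrasts that had no call. Of the 4 member tests under 0.05, 1 was with anisomycin, beside 310 of 14699 genes. The other 3 were with NaCl at 8 h, beside 758 of 15082 genes. The largest member difference was that of Maff with anisomycin, -1.35 (SE 0.29, 95% interval -1.96 to -0.73, unadjusted p = 0.000342, adjusted p = 0.503). The arrays did not overlap, and with the replicate number as a block the adjusted p was 0.0752. At 8 h of NaCl the differences were -0.67 for Gclc (95% interval -1.02 to -0.31, adjusted p = 0.246), -0.78 for Mafk (95% interval -1.40 to -0.16, adjusted p = 0.705) and -0.49 for Nqo1 (95% interval -0.91 to -0.07, adjusted p = 0.799). At 2 h of NaCl Maff differed by -0.14 with an interval from -0.75 to 0.48, and Mafk by -0.22 with an interval from -0.84 to 0.40.

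The loss of p38α was tested by setting p38α-/- against wild type MEFs under the same stress. Of 20 tests of members, 1 was called, and 9 were under 0.05 without adjustment. By stress, the count was 1 of 7 with anisomycin (1.27% of all genes), 0 of 4 under TNFα (0.414%), and 0 of 9 after 2 h of NaCl (0.697%). Without adjustment 3, 2 and 4 members were under 0.05, beside 1932 of 15474, 1115 of 14265 and 2042 of 17645 genes. The call was Nqo1 with anisomycin, at 1.03 and 1.40 in p38α-/- against 0.41 and 0.07 in wild type MEFs, a rise of 0.98 (SE 0.20, 95% interval 0.56 to 1.40, 1.97-fold, adjusted p = 0.0198). With TNFα and NaCl, Nqo1 differed by 0.69 (adjusted p = 0.218) and 0.81 (adjusted p = 0.0792), and its arrays did not overlap under any of the 3 stresses. Without 1 of the 4 arrays in turn, the difference with anisomycin ran from 0.79 to 1.17 and was called in 1 of the 4 fits. The first p38α-/- arrays and the second wild type arrays were scanned on 1 day, and within that day Nqo1 was higher in p38α-/- MEFs by 0.96 with anisomycin, 0.52 with TNFα and 1.27 with NaCl. With 2 arrays on each side, Maff, Nfe2l2 and Gclm did not overlap under any of the 3 stresses either, nor did Hmox1 with anisomycin and NaCl. The share of all genes without overlap was not taken.

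Maff differed between p38α-/- and wild type MEFs by -1.17 with anisomycin (SE 0.29, 95% interval -1.79 to -0.56, adjusted p = 0.0682), -0.95 with NaCl (SE 0.29, adjusted p = 0.196) and -0.66 with TNFα with marked spots kept (adjusted p = 0.487). With the replicate number as a block, anisomycin (adjusted p = 0.0103) and NaCl (adjusted p = 0.046) were called, and with marked spots kept anisomycin was (adjusted p = 0.038, 1.57% of all genes called). The block called 281 genes higher and 337 lower of 15471 with anisomycin, beside 80 and 117 of 15474 without it. For NaCl these were 147 and 218 of 17550, beside 46 and 77 of 17645. Within the shared scan day the Maff differences were smaller, -0.80, -0.27 and -0.33 for anisomycin, NaCl and TNFα. With the scan day as a term they were -0.83 with anisomycin and -0.60 with NaCl (adjusted p = 0.133 and 0.35). Nfe2l2 differed by -0.62 with anisomycin (adjusted p = 0.112, and 0.0407 with the replicate number as a block), -0.47 with TNFα (adjusted p = 0.464) and -0.54 with NaCl (adjusted p = 0.222). Its arrays did not overlap under any of the 3 stresses, as held for several other members. Within the shared scan day the Nfe2l2 differences were -0.66, -0.39 and -0.22. Gclm differed by -0.70 with NaCl (adjusted p = 0.268), and by -0.67 with anisomycin and -0.61 with TNFα with marked spots kept. Within the shared scan day these Gclm differences were -0.18, -0.39 and -0.60, and with the scan day as a term that with NaCl was -0.42. Mafk differed by -0.25 with anisomycin, -0.23 with TNFα and -0.32 with NaCl, with intervals that held 0. Its direction turned with the scan day, to 0.21, 0.04 and 0.33 within the shared day and to 0.18, 0.03 and 0.11 with the scan day as a term.

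**Figure D5:**
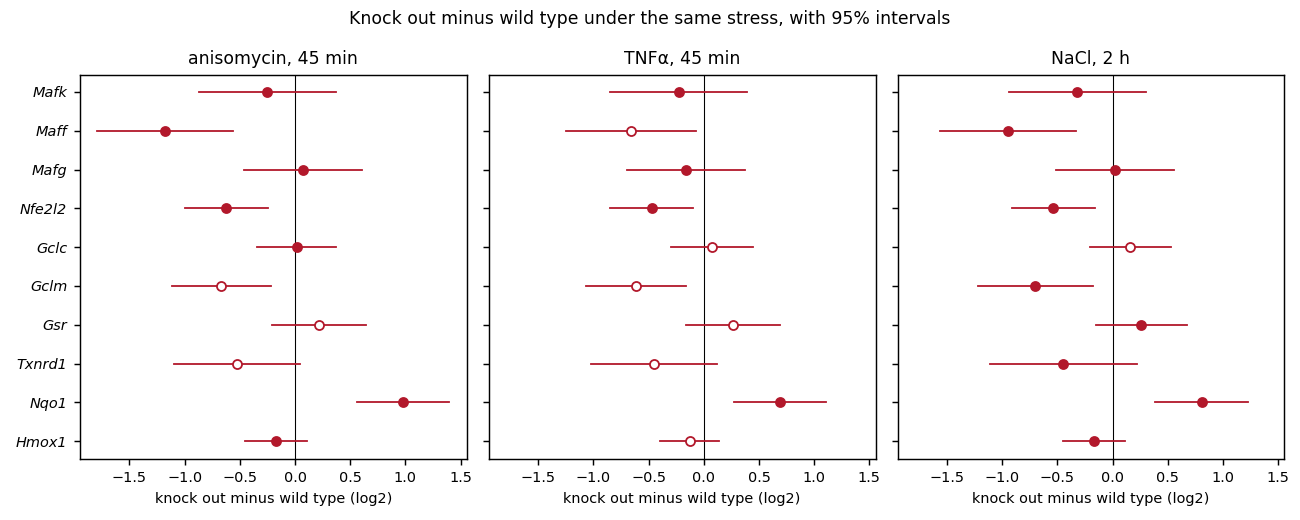
Difference in log2 ratio between p38α-/- and wild type MEFs under anisomycin, TNFα and NaCl for 2 h for the 10 genes, with 95% intervals from the fit over all arrays. Filled points are differences with a test, and open points are differences with marked spots kept. Nqo1 lay above 0 under all 3 stresses, at 0.98, 0.69 and 0.81, and was called with anisomycin only, while Maff and Nfe2l2 lay below 0.

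Within p38α-/- MEFs, the stressed cultures were set against untreated ones of the same line. Of 14 tests, 0 were called and 3 were under 0.05 without adjustment, all of them Maff, beside 0.0847% of all genes called with anisomycin, 0.0780% with TNFα and 1.08% with NaCl. Among all genes, 579 of 16529, 466 of 15386 and 1714 of 16615 were under 0.05 without adjustment with these stresses. Maff differed by 0.71 with anisomycin (95% interval 0.09 to 1.32, adjusted p = 1), 1.10 with TNFα (95% interval 0.49 to 1.72, adjusted p = 0.751) and 0.80 with NaCl (95% interval 0.18 to 1.41, adjusted p = 0.287). With marked spots kept, Hmox1 rose by 0.55 with NaCl (SE 0.13, adjusted p = 0.0389, 1.24% of all genes called), from -0.39 and -0.21 to 0.24 and 0.25. Nqo1, already high in untreated p38α-/- MEFs, gave differences of -0.33, -0.42 and -0.25 with marked spots kept (adjusted p = 1, 0.947 and 0.65).

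Whether a stress changed a gene differently in an arm than in wild type MEFs was tested by setting the change over the unstressed cells of that arm against the wild type change over the pool. The pool does not cancel in these contrasts, and its own spread is not held in them. A dye bias of a gene enters them with reversed sign and cannot be told apart from a true difference of the changes. The 5 contrasts with SB203580 all subtract the same 2 arrays of SB203580 alone, and the 3 with p38α-/- MEFs the same 2 untreated arrays, so that they are not independent of each other. These unstressed cells and the pool were not matched in time to stresses of 45 min, 2 h and 8 h. Time in culture and the length of exposure to the inhibitor thus cannot be told apart from a difference of the changes. Of 26 tests of members, 1 was called and 16 were under 0.05 without adjustment. Among all genes, 2323 of 13549 were under 0.05 without adjustment with SB203580 and anisomycin, and 2101 of 13369 with SB203580 and TNFα. With SB203580 and NaCl they were 1559 of 11750, 2710 of 14316 and 2153 of 13562 at 45 min, 2 h and 8 h. In p38α-/- MEFs they were 2252 of 14769 with anisomycin, 1998 of 13780 with TNFα and 2167 of 15939 with NaCl. The shares of all genes called were 0.583% with SB203580 and anisomycin, 0.651% with TNFα, 0.0936%, 1.65% and 0.295% with NaCl at 45 min, 2 h and 8 h, and 0.542%, 0.450% and 0% in p38α-/- MEFs with anisomycin, TNFα and NaCl, where 2167 genes were under 0.05 without adjustment in the last. The call was Nfe2l2 with SB203580 and NaCl for 2 h, where the difference of the changes was -0.89 (SE 0.22, adjusted p = 0.048). SB203580 alone already stood at 0.79 and 0.24 for this gene. When each of the 6 arrays of this contrast was left out in turn, the difference ran from -1.16 to -0.61 and was called in 2 of the 6 fits.

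With the replicate number as a block, 4 were called, adding Maff in p38α-/- MEFs with anisomycin (-1.41, adjusted p = 0.0181) and, with SB203580 and NaCl for 8 h, Mafk (-0.98, adjusted p = 0.0436) and Nqo1 (-0.97, adjusted p = 0.0465). The block also called more of all genes. In p38α-/- MEFs with anisomycin 273 were higher and 192 lower of 14769, beside 62 and 18 without it. With SB203580 and NaCl these were 342 and 488 of 14316 at 2 h, beside 88 and 148. At 8 h they were 155 and 262 of 13562, beside 13 and 27. With marked spots kept, 11 were called, beside 8.43% of all genes with SB203580 and anisomycin, 9.50% and 3.80% with SB203580 and NaCl at 2 h and 8 h, and 7.20% and 8.13% in p38α-/- MEFs with anisomycin and TNFα. The largest of these was Gclc with SB203580 and NaCl for 8 h, -1.52 (adjusted p = 0.00261), a gene that stood at 1.10 and 0.61 with SB203580 alone.

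A wider list of 72 genes of the same biology held further regulators and partners, glutathione, thioredoxin and peroxide, heme and iron, and NADPH and quinone genes, and 65 of them were on the array. Against the pool and among those measured, 1 rose and 2 fell of 39 with anisomycin (12% of all genes called in either direction), 0 and 2 of 40 with TNFα (11%), 1 and 3 of 37 with NaCl at 45 min (9.88%), 2 and 4 of 52 at 2 h (9.92%) and 4 and 7 of 45 at 8 h (22.2%). With SB203580 alone, 9 rose and 2 fell of 40 (26.6%). After SB203580, 0 rose and 5 fell of 45 with anisomycin (11.7%), 2 and 1 of 43 with TNFα (9.52%), and 3 and 2 of 40, 4 and 2 of 54 and 1 and 6 of 46 with NaCl at 45 min, 2 h and 8 h (16.8%, 17.1% and 21.2%). Among p38α-/- MEFs, 3 rose and 4 fell of 46 untreated (15%), 5 and 5 of 57 with anisomycin (12.4%), 0 and 3 of 48 with TNFα (7.61%) and 4 and 4 of 54 with NaCl (18%). The excess over the share of all genes was largest with anisomycin in p38α-/- MEFs, where it amounted to a few genes. The shares stood near that of all genes or slightly above it with SB203580 alone and in untreated p38α-/- MEFs. The same held for NaCl without inhibitor at 45 min, 2 h and 8 h. In the other groups the shares lay below it. The medians of the list lay between -0.05 and 0.15 in the 15 groups, beside 0 to 0.02 over all genes.

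Named by the size of their change, Slc40a1, the iron exporter, was at 0.99 and 2.01 with NaCl for 8 h (1.50, SE 0.26, adjusted p = 0.000345), and Txnip, which binds and inhibits thioredoxin, was at -1.22 and -1.11 (-1.16, SE 0.20, adjusted p = 0.000619). At 2 h of NaCl these were Prdx1, a peroxiredoxin (0.77, SE 0.17, adjusted p = 0.00864), and Mgst1, a microsomal glutathione transferase (0.74, SE 0.23, adjusted p = 0.0479). With anisomycin they were Abcc4, an efflux pump (0.67, SE 0.18, adjusted p = 0.0201), and Keap1, the negative regulator of Nrf2, which fell by 0.53 (SE 0.11, adjusted p = 0.0167). Between p38α-/- and wild type MEFs, 1 gene of the list was called, Gstm2, a glutathione transferase, which was lower in p38α-/- MEFs with NaCl (-1.05, SE 0.14, adjusted p = 0.00784). The contrasts of SB203580, within p38α-/- MEFs and of the inductions called 0 genes of the list. From 2 h to 8 h of NaCl, Slc40a1 rose by 1.50 (SE 0.36, adjusted p = 0.0149) and Fech, the ferrochelatase that completes heme, fell by 1.19 (SE 0.19, adjusted p = 0.000633).

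The genes whose group means followed those of Maff, Mafk and Hmox1 most closely were found among all genes by Pearson's r over the groups, as a description. For Maff these were Slc29a3 (r = 0.863) and Thbs1 (r = 0.860) over 15 groups and Ier3 (r = 0.853) over 13. For Mafk they were Tnfrsf12a (r = 0.899) over 12 groups and Sos1 (r = 0.888) and A230058J24Rik (r = 0.877) over 15. For Hmox1 they were Sycp1 (r = 0.856), Fdft1 (r = 0.847) and Slc20a1 (r = 0.829) over 15. The groups share the pool, the scan days and the cell lines, and each r is the highest among all genes measured in at least 12 groups.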

How the data were processed

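Total RNA was amplified, labelled and hybridised to 30 2-colour Agilent arrays. The authors read the intensities of the spots with Agilent's Feature Extraction software, whose version is 8.1.1.1 per the file headers and 9.1 per the submitters' processing notes. Spatial detrending and a linear and LOWESS dye normalisation were on. The deposited log10 ratios of Cy5 to Cy3 were used. The authors also deposited a table of log2 ratios, which served as an alternative, with its scale judged from the values. Its column medians lay between -0.06 and 0.03. The study states that the 2 arrays of a group came from independent experiments. It names no second cell line of either genotype, so p-values are taken to measure the spread between these experiments only. The members and gene lists were chosen with earlier results of these data known.

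Log10 ratios were turned into log2, control and outlier-marked spots were left out, and probes of a gene were averaged, of 41174 probes 33453 with a gene name. limma 3.58.1 in R 4.3.3 fitted 15 group means to the 30 arrays, with Benjamini-Hochberg adjustment over all genes measured on the arrays compared. The number of arrays limits the precision. Named genes were the 10 members, Mapk14, up to 2 called genes of the wider list with the largest value per comparison (given here for part of the groups), and the 3 genes most like Maff, Mafk and Hmox1. The fit was tested on simulated data with independent noise on each array and a shift larger than most differences given here. The variation shared between arrays, described below, was not simulated. Tables were made in Python 3.11.15 (scipy 1.17.1, pandas 2.3.3, numpy 2.4.6) and figures with matplotlib 3.10.9.

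To check the replicate numbers, first minus second array was taken in each group and correlated between groups. All 55 wild type pairs (0.13 to 0.65) and all 6 p38α-/- pairs (0.15 to 0.45) exceeded 0.1, against 6 of 44 pairs across genotypes. Arrays of the same number thus varied together within a genotype. First and second arrays of a genotype were also scanned on different days, so that a pairing of samples cannot be told apart from the scan day. There were 4 scan days. All first wild type arrays were scanned on day 1, and the second wild type and the first p38α-/- arrays on day 2. The second p38α-/- arrays followed on day 3, except that of TNFα on day 4.

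The alternatives tried were the deposited log2 table, normexp with an offset of 50 and loess, spots well above background only, marked spots kept, the brightest probe of each gene, a replicate block, only the arrays compared, the 2.5-fold rule of the methods and each array left out in turn. Added after seeing the data were probes with an NM accession and the scan day as a term.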

Additional observations from a re-analysis of the deposited data

Results flagged for a closer look

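Of 26 tests of members on whether a change with stress differed between arms, 1 was called. The pool, and with it a dye bias, does not cancel in these tests, and the unstressed cells were not matched in time to each stress. With NaCl for 2 h, the change of Nfe2l2 over SB203580 alone minus its change over the pool without inhibitor was -0.89 (adjusted p = 0.048). In this contrast, 1.65% of all genes were called.

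With spots marked as outliers kept, differences past the threshold were also found with SB203580 and anisomycin for Maff (-1.38, adjusted p = 0.0256), Hmox1 (-0.55, adjusted p = 0.038) and Gclc (-0.82, adjusted p = 0.0302). Others were found with SB203580 and NaCl for Hmox1 at 2 h (-0.62, adjusted p = 0.0231) and for Gclc at 8 h (-1.52, adjusted p = 0.00261), and in p38α-/- MEFs with TNFα for Nqo1 (-0.85, adjusted p = 0.0431). These 6 differences had no test without the marked spots. In all, 11 differences were past the threshold with marked spots kept. In p38α-/- MEFs with anisomycin they included Maff (-1.41, adjusted p = 0.0179) and Nfe2l2 (-0.74, adjusted p = 0.0386), beside 7.20% of all genes. Both were tested but not called without the marked spots. With marked spots kept, 8.43% of all genes were called with SB203580 and anisomycin, and 8.13% in p38α-/- MEFs with TNFα. With SB203580 and NaCl the shares were 9.50% at 2 h and 3.80% at 8 h. The 6 values with SB203580, that of Nfe2l2 included, share the 2 arrays of SB203580 alone, where Gclc was at 1.10 and 0.61, Hmox1 at 0.51 and 0.24, Nfe2l2 at 0.79 and 0.24 and Maff at 0.15 and -0.09. The part of these 2 arrays was not tested for the 5 differences with marked spots kept. For Nfe2l2 the difference was -0.61, no longer past the threshold, without the first of them and -1.16 without the second.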

How the results depend on the processing

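No called value of a member changed direction among 667 values of 60 called ones under the alternatives. The counts of calls did move. The background moved as well. With SB203580 alone, 26.6% of all genes were called against the pool, and 41.4% with marked spots kept. With the replicate block 3074 genes were higher and 2389 lower of 15199, beside 2242 and 1800 of 15204 without it. For the remaining settings the share of all genes is not given here, so that a larger count is no result about the members. Against the pool, where 56 pairs were called, the deposited log2 table called 94, a fit of only the arrays of the groups compared called 0, and 10 passed the 2.5-fold rule, which has no test. A fit with the replicate block called 74, marked spots kept 84, and the other settings 59 to 64. For SB203580 with a stress against the stress alone, 0 were called, and 1 passed the 2.5-fold rule. For p38α-/- against wild type MEFs, 1 was called, 3 with normexp, 4 with the deposited table, 2 with spots well above background, 2 with marked spots kept, 2 with the brightest probe, 4 with the replicate block, 0 with only the arrays compared and 0 by the 2.5-fold rule. Within p38α-/- MEFs, 0 were called, and 1 with marked spots kept. For the NaCl times, 2 were called, 5 with the deposited table, 1 with the scan day as a term, 0 with only the arrays compared and 0 by the 2.5-fold rule. For the differences of inductions, 1 was called, 5 with normexp, 23 with the deposited table, 11 with marked spots kept, 5 with the brightest probe, 3 with NM probes, 4 with the replicate block and 0 with only the arrays compared. The replicate block changed no count of the NaCl times, within p38α-/- MEFs or for SB203580. Hmox1 at 8 h of NaCl lost its call with normexp. Causes were not tested.

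Leaving out 1 array at a time, a lone array being assumed to vary like the other groups, gave 52 to 57 calls against the pool, 0 to 0 for SB203580, 0 to 2 for p38α-/- against wild type MEFs, 0 to 0 within p38α-/- MEFs, 0 to 2 for the NaCl times and 0 to 9 for the inductions. The 9 arose without the second array of SB203580 alone, and 0 without its first, without the first of NaCl for 2 h or without either of SB203580 with NaCl for 2 h, and 2 without the second of untreated p38α-/- MEFs. For p38α-/- against wild type MEFs, 0 were called without either wild type or the second p38α-/- array of anisomycin, and 2 without the second p38α-/- array of NaCl. For the NaCl times, 0 were called without the first array at 2 h or at 8 h, and 1 without the second at 8 h. Of the 56 calls against the pool, 14 held without either array of their group, 21 without 1 of them only, and 21 were lost without either one.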
